A study of Mus musculus with 4 samples.

Results

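The colony-stimulating factors (CSFs) are cytokines that drive the growth, survival and activation of myeloid cells. The 7 genes described here were taken by symbol from the 32285 genes of the deposited tables. They are the ligands Csf1 (macrophage CSF), Csf2 (granulocyte-macrophage CSF, GM-CSF) and Csf3 (granulocyte CSF, G-CSF), and the receptor genes Csf1r, Csf2ra, Csf2rb and Csf3r. All 7 symbols were found, each with 1 gene identifier.

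Single-cell RNA sequencing set mice that received liproxstatin-1 for 8 days against control mice, each with 2 libraries labelled as replicates. Liproxstatin-1 inhibits ferroptosis, a form of cell death in which iron drives the peroxidation of lipids. All mice were Balb/c, 9 weeks old, and bore tumours of CT26, a colon carcinoma cell line of that strain. CD45+ cells (leukocytes) were taken from the tumours by positive selection with magnetic beads, and transcripts were counted from the 3' end with unique molecular identifiers (UMIs). Whether control mice received a vehicle is not given in the sources used here. Replicates are not said to come from different animals, so a p-value covers only the spread of these libraries, and that spread may be technical.

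The liproxstatin libraries held 168597163 and 165165389 UMIs in 8659 and 9299 barcodes, and the control libraries 83129874 and 162158147 UMIs in 4138 and 6996 barcodes. After filters, 7654 and 8061 cells were kept with liproxstatin and 3753 and 6262 in control. UMIs of Ptprc, which encodes CD45, were present in 89.8% and 93.5% of liproxstatin cells and in 81.9% and 89.3% of control cells. Cells fell into 13 immune or stromal classes named from marker genes, so that a class name means resemblance by those markers. Clusters that took no name held 7.26% and 2.23% of liproxstatin cells and 17.6% and 6.98% of control cells. Control replicate 1 had the fewest UMIs and only 98 neutrophils, against 442 in control replicate 2 and 583 and 392 in the liproxstatin libraries. Pairs of libraries shared between 4 and 22 barcodes, at most 0.29% of the smaller library.

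Each ligand has its own receptor. The CSF1 receptor is a tyrosine kinase that maintains monocytes and macrophages, and the G-CSF receptor is the main growth and survival receptor of neutrophils. The GM-CSF receptor pairs an alpha chain (Csf2ra), which binds the ligand, with a common beta chain (Csf2rb), which signals through the kinase JAK2 and STAT5 and is shared with the receptors for IL-3 and IL-5. In tumours these cytokines are known for recruiting and shaping macrophages and neutrophils.

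Across the classes the ligands and receptors were spread as follows. Neutrophils had the highest mean level of 5 of the 7 genes, Csf1, Csf2ra, Csf2rb, Csf3 and Csf3r, though for Csf2ra and Csf3 their range overlapped that of monocytes. Csf1r was highest in macrophages and Csf2 in T and NK lymphocytes. Levels are the UMIs of a gene per 1000000 UMIs of a class in a library (CPM), and classes were built from other genes of the same cells, so differences between classes are a description. The 7 genes were left out of the genes used for clustering.

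**Figure D1:**
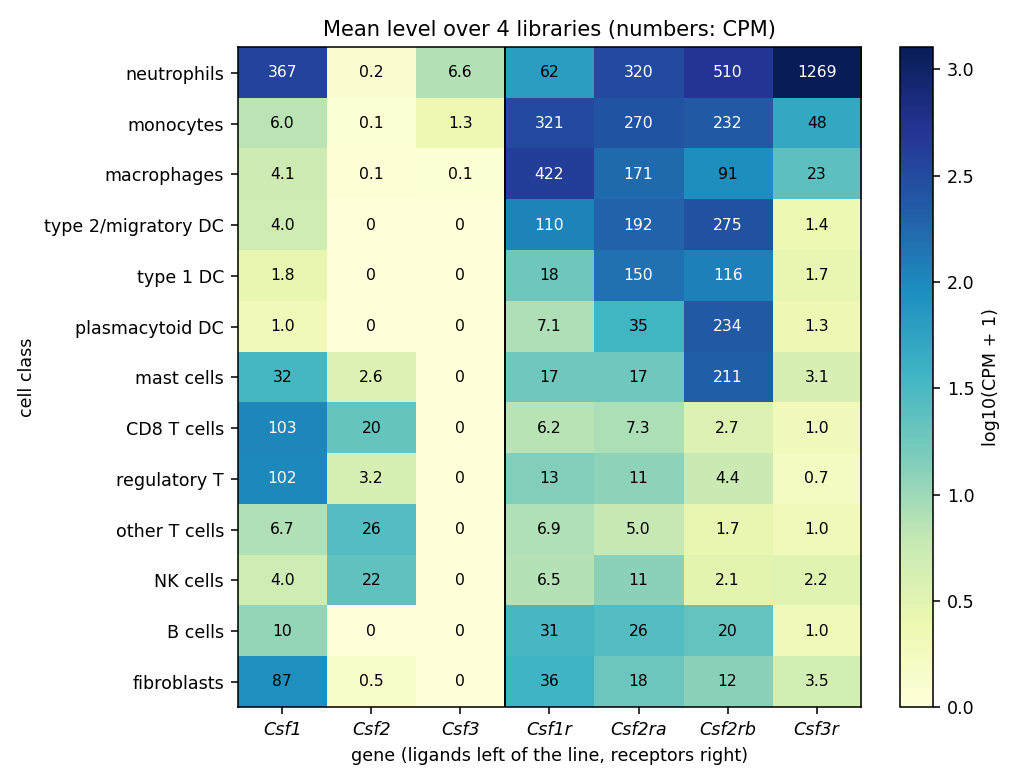
Mean level of each gene (columns, ligands left of the line and receptors right of it) in each of the 13 classes (rows), in CPM, over the 4 libraries. Colour is log10(CPM + 1). Neutrophils are darkest for Csf3r (1269 CPM), macrophages for Csf1r (422 CPM), and Csf2 is at 0 in dendritic and B cells.

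Csf1, the ligand that maintains macrophages, had its highest level in neutrophils, then in CD8 and regulatory T cells, and a low level in macrophages. Its level in neutrophils was 349 and 454 CPM in the liproxstatin libraries and 406 and 258 CPM in control. The groups overlapped, with both the highest and the second lowest neutrophil value in liproxstatin libraries. Over the 4 libraries the neutrophil mean was 367 ± 84.2 CPM (SD, n = 4), and no other class reached the lowest neutrophil value. CD8 T cells (103 ± 7.98 CPM), regulatory T cells (102 ± 30.9 CPM) and fibroblasts (86.7 ± 46.9 CPM) came next, and these neighbours did not differ beyond their spread. Mast cells followed at 32.2 ± 8.23 CPM, and other T cells had only 6.73 ± 1.92 CPM. Macrophages, the target cells, stood at 4.13 ± 0.134 CPM.

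CD8 T cells held the largest part of the Csf1 molecules, 47.0% and 47.5% of the UMIs of a liproxstatin library and 44.5% and 43.7% of a control library. Neutrophils held 22.8% and 18% with liproxstatin and 13.5% and 16.3% in control. Macrophages, at a low level per UMI but in large number, held 11.8% and 13.4% with liproxstatin and 18.2% and 14.8% in control, more than neutrophils in control replicate 1. After each cell was thinned to 2000 UMIs, 30.7% and 39.8% of liproxstatin neutrophils and 24.7% and 26.6% of control neutrophils had a Csf1 UMI. The same share was 20.6% and 19.1% of liproxstatin CD8 T cells and 23.1% and 19.5% of control CD8 T cells. Thinned shares left out shallower cells, 65 and 63 liproxstatin and 9 and 24 control neutrophils. Without thinning, 37.7% and 45.2% of liproxstatin and 33.7% and 33.9% of control neutrophils had a Csf1 UMI, at median depths of 2755 to 3677 UMIs. The exact (Clopper-Pearson) 95% intervals of these shares ran from 33.8% to 41.8% and from 40.2% to 50.2% with liproxstatin, and from 24.4% to 43.9% and from 29.5% to 38.6% in control, for counting error only. In the deeper plasmacytoid dendritic cells the share was at most 3.17%. Among finer clusters of CD8 T cells, Csf1 was 142 and 115 CPM with liproxstatin and 118 and 115 CPM in control in the cluster led by Cxcr6. It was 71.1 and 83.9 CPM with liproxstatin and 64.3 and 85.9 CPM in control in the cluster led by Nrgn and Rgs16.

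Csf1 lies on the minus strand of chromosome 3 (chr3:107741048-107760469, GRCm38). The 250 bases upstream of its RefSeq start (chr3:107760470-107760719, minus strand, RefSeq on GRCm38.p6) are shown with the capitals marking the GC box letters GGGCGG, searched on both strands. The motif is the core bound by SP1-type factors, and 32.7% of the 32851 RefSeq promoter windows of this length held it at least once.
Csf1: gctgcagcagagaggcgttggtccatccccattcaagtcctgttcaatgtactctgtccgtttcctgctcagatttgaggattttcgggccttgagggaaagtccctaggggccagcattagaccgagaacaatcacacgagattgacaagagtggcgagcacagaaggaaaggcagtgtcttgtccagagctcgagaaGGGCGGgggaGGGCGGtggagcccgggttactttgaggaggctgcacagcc
The window held 2 GC boxes, and none of the letters searched for PU.1 (GAGGAA), AP-1 (TGANTCA), NFAT (GGAAAA), C/EBP (TTGNNNAA) or NF-kB (GGGNNTTCC).

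Csf2, the ligand for granulocyte and macrophage growth, was read from lymphocytes. In CD8 T cells it was 13.9 and 19.9 CPM with liproxstatin and 18.7 and 26.4 CPM in control. In NK cells it was 27.9 and 8.15 CPM with liproxstatin and 20.2 and 30.5 CPM in control. Other T cells had 21.0 and 10.4 CPM with liproxstatin and 58.6 and 12.9 CPM in control. The groups overlapped in each of these classes, and the 3 classes did not differ beyond their spread over libraries. In dendritic and B cells no Csf2 UMI was seen in any library, which allows levels of up to 3.25 CPM in dendritic and 26.9 CPM in B cells. In macrophages Csf2 was at most 0.0817 CPM.

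Csf2 molecules sat in few cells. Of CD8 T cells, 49 of 880 and 60 of 1007 had a Csf2 UMI with liproxstatin, and 19 of 254 and 106 of 670 in control. These were 5.57% and 5.96% of liproxstatin and 7.48% and 15.8% of control CD8 T cells, at median depths of 11144 to 15184 UMIs. In the deeper macrophages the share was at most 0.218%. The cells with 5 or more UMIs, between 4 and 10 cells a library, held 68.7% and 77.9% of the CD8 Csf2 UMIs with liproxstatin and 75.0% and 58.1% in control. In NK cells of liproxstatin replicate 1, 117 of 221 Csf2 UMIs came from 1 cell, and in other T cells of control replicate 1, 51 of 62 did. Without the top cell of each library, CD8 T cells had 9.50 and 16.7 CPM with liproxstatin and 9.82 and 22.2 CPM in control.

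At finer resolution the highest Csf2 level belonged to a small cluster of other T cells led by Il17a, Cd163l1 and Tcrg-C1, genes of gamma-delta T cells that make IL-17. It had 106 and 58.8 CPM in the liproxstatin libraries and 408 and 136 CPM in the control libraries. Both control values lay above both liproxstatin values, but the cluster had only 36 and 29 liproxstatin and 18 and 12 control cells and was not tested. A single cell held 25 of 31 and 7 of 11 of its UMIs with liproxstatin and 51 of 54 and 10 of 16 in control. Without the top cell of each library the levels were 21.0 and 21.5 CPM with liproxstatin and 24.1 and 54.9 CPM in control. NK cells led by Gzma and Ncr1 had 35.1 and 10.3 CPM with liproxstatin and 28.1 and 38.3 CPM in control.

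**Figure D2:**
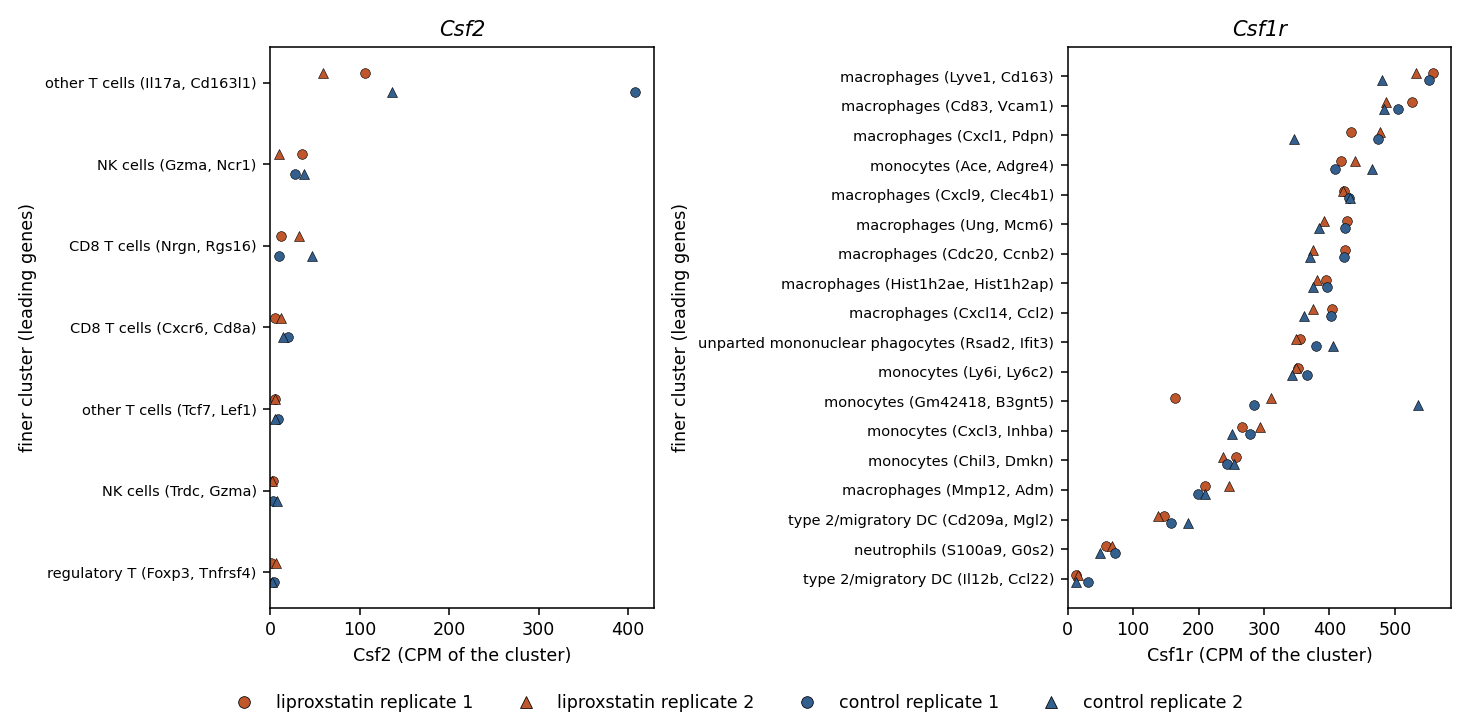
Csf2 (left) and Csf1r (right) level in CPM of each finer cluster, named by class and leading genes, per library (points). The Il17a-led cluster of other T cells stands furthest right for Csf2, at 106 and 58.8 CPM with liproxstatin and 408 and 136 CPM in control, and Csf1r is at most 31.1 CPM in dendritic cells led by Il12b and Ccl22 and at least 480 CPM in macrophages led by Lyve1 and Cd163.

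Csf3, the ligand that drives neutrophil production, gave the fewest UMIs of the 7 genes, 74 and 39 in the liproxstatin libraries and 34 and 4 in the control libraries. It was read from neutrophils, monocytes and macrophages and from no cell of the other 10 classes tested. In CD8 T cells, the deepest of these 10, a count of 0 allowed up to 0.233 and 0.220 CPM with liproxstatin and 0.638 and 0.255 CPM in control (limits from 3 UMIs per library, counting error only). In neutrophils Csf3 was 11.7 and 8.24 CPM with liproxstatin and 5.72 and 0.587 CPM in control. In monocytes it was 1.48 and 0.440 CPM with liproxstatin and 3.33 and 0.0977 CPM in control. Macrophages had 0.259 and 0.268 CPM with liproxstatin and 0.0207 and 0.0205 CPM in control. The groups did not overlap in neutrophils and macrophages and overlapped in monocytes.

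Csf1r, the receptor for CSF1, followed the mononuclear phagocytes. Macrophages had 434 and 417 CPM with liproxstatin and 443 and 393 CPM in control. Monocytes had 305 and 322 CPM with liproxstatin and 337 and 321 CPM in control. The groups overlapped in both classes, with the control macrophage libraries at either end of the range. Over the 4 libraries the order was macrophages (422 ± 22.0 CPM), monocytes (321 ± 13.4 CPM), type 2 and migratory dendritic cells (110 ± 6.75 CPM) and neutrophils (61.5 ± 10.2 CPM), and the ranges of these neighbours did not overlap. A Csf1r UMI was present in 97.2% and 97.7% of liproxstatin macrophages and in 98.0% and 97.3% of control macrophages, at median depths of 24414 to 33830 UMIs. The share was 6.93% and 5.56% of liproxstatin and 13.4% and 11.2% of control CD8 T cells, at median depths of 11144 to 15184 UMIs. Macrophages held 81.7% and 81.7% of the Csf1r UMIs of the liproxstatin libraries and 82.6% and 87.0% of those of the control libraries.

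Within the phagocytes Csf1r followed subset. Among macrophages its mean was highest in the cluster led by Lyve1 and Cd163, genes of tissue-resident macrophages, at 559 and 533 CPM with liproxstatin and 551 and 480 CPM in control. The range overlapped that of the cluster led by Cd83 and Vcam1, at 526 and 486 CPM with liproxstatin and 504 and 484 CPM in control. It was lowest in the cluster led by Mmp12 and Adm, at 210 and 246 CPM with liproxstatin and 200 and 210 CPM in control. Among monocytes the cluster led by Ace and Adgre4, genes of patrolling monocytes, had 417 and 438 CPM with liproxstatin and 409 and 466 CPM in control. The monocyte cluster led by Chil3 had 257 and 237 CPM with liproxstatin and 243 and 254 CPM in control. Dendritic cells led by Cd209a and Mgl2 had 147 and 138 CPM with liproxstatin and 158 and 183 CPM in control, whereas the migratory cluster led by Il12b and Ccl22 had 12 and 15.7 CPM with liproxstatin and 31.1 and 13.1 CPM in control. An unnamed cluster led by Cd209g and Ednrb had 833 and 514 CPM with liproxstatin and 762 and 841 CPM in control, above the Lyve1-led cluster in each library but liproxstatin replicate 2.

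Outside the phagocytes low Csf1r levels stood beside low levels of macrophage markers. In CD8 T cells Csf1r was 4.82 and 4.19 CPM with liproxstatin and 8.93 and 6.90 CPM in control. That was 1.11% and 1.00% of the macrophage level of the same library with liproxstatin and 2.01% and 1.75% in control. The summed level of all 10 macrophage markers in CD8 T cells was 1.29% and 1.00% of that in macrophages with liproxstatin and 1.18% and 1.62% in control. In both control libraries the receptor's share was above that of the markers, most in control replicate 1. With liproxstatin it was below that of the markers in replicate 1 and level with it in replicate 2. Csf2ra in CD8 T cells was 4.69% and 4.13% of its macrophage level with liproxstatin and 4.57% and 3.64% in control. In fibroblasts Csf1r was 26.4 and 26.1 CPM with liproxstatin and 83.7 and 6.46 CPM in control, and the 10 macrophage markers there summed to between 1512 and 2210 CPM with liproxstatin and between 360 and 5518 CPM in control. The part of free RNA or mixed droplets in these levels was not tested.

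Csf2ra, the ligand-binding chain of the GM-CSF receptor, was highest in neutrophils, monocytes, macrophages and the conventional and migratory dendritic cells. Neutrophils had 298 and 302 CPM with liproxstatin and 401 and 281 CPM in control, and monocytes 252 and 266 CPM with liproxstatin and 276 and 286 CPM in control. Control monocytes lay just above liproxstatin monocytes, while the neutrophil groups overlapped. In monocytes 39.8% of all genes had groups that did not overlap. Neutrophils (320 ± 54.3 CPM) and monocytes (270 ± 14.7 CPM) did not differ beyond their spread. Type 2 and migratory dendritic cells (192 ± 20.03 CPM), macrophages (171 ± 2.64 CPM) and type 1 conventional dendritic cells (150 ± 19.2 CPM) followed, with overlapping neighbours. Plasmacytoid dendritic cells had 34.5 ± 2.77 CPM, and CD8 T cells 7.25 ± 0.717 CPM. Mast cells had only 17.2 ± 7.22 CPM, near fibroblasts at 17.8 ± 13.5 CPM.

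Csf2rb, the signalling chain, had a wider range. Neutrophils had 599 and 517 CPM with liproxstatin and 466 and 459 CPM in control, so that the groups did not overlap. Type 2 and migratory dendritic cells had 333 and 270 CPM with liproxstatin and 237 and 261 CPM in control, again without overlap. Plasmacytoid dendritic cells had 256 and 184 CPM with liproxstatin and 240 and 256 CPM in control. Mast cells, which answer to IL-3, had 298 and 151 CPM with liproxstatin and 213 and 183 CPM in control. Over the 4 libraries type 2 and migratory dendritic cells, plasmacytoid dendritic cells, monocytes and mast cells (275 to 211 CPM on average) did not differ beyond their spread between neighbours, whereas neutrophils (510 ± 64.6 CPM) lay above them and macrophages (90.9 ± 4.79 CPM) below. Among monocytes the level was 341 and 339 CPM with liproxstatin and 339 and 321 CPM in control in the Chil3-led cluster. It was 153 and 138 CPM with liproxstatin and 127 and 147 CPM in control in the cluster led by Ly6i, Ly6c2 and Ly6c1.

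The balance of the GM-CSF receptor chains differed between classes. Plasmacytoid dendritic cells had 8.15 and 5.41 Csf2rb UMIs per Csf2ra UMI with liproxstatin and 6.31 and 7.38 in control. Mast cells had 26.25 and 7.82 with liproxstatin and 18.2 and 6.88 in control, from only 36 Csf2ra UMIs in all. Macrophages had 0.544 and 0.556 with liproxstatin and 0.504 and 0.527 in control. The ratio compares UMI counts of different genes, whose capture may differ, so only its change between classes is informative. UMIs of both chains were found in the same cell in 76.7% and 74.8% of liproxstatin and 77.7% and 81.6% of control macrophages. In neutrophils, whose median depth was between 2755 and 3677 UMIs against 24414 to 33830 in macrophages, the share was 41.0% and 31.9% with liproxstatin and 48.0% and 40.7% in control. In CD8 T cells it was 0.341% and 0.298% with liproxstatin and 1.57% and 0.448% in control.

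Csf2rb has a closely related neighbour on chromosome 15, Csf2rb2, which encodes the beta chain specific to IL-3 in mice, and how reads matching both were counted is not given in the sources used here. Of the 50-base words of the longest Csf2rb transcript, 18.4% also occurred in Csf2rb2, but 0 of 451 did in the last 500 bases, where 3' libraries are read. A split of reads between both genes was not tested and leaves Csf2rb levels uncertain. Csf2rb2 was highest in plasmacytoid dendritic cells, at 256 and 232 CPM with liproxstatin and 313 and 331 CPM in control.

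Csf3r, the G-CSF receptor, was highest in neutrophils by a wide margin. It was 1240 and 1340 CPM in liproxstatin neutrophils and 1362 and 1132 CPM in control neutrophils, with both control values outside the liproxstatin range on either side. Monocytes had 44.2 and 46.7 CPM with liproxstatin and 52.8 and 47.6 CPM in control. Macrophages had 23.4 and 22.9 CPM with liproxstatin and 25 and 19.6 CPM in control. After thinning to 2000 UMIs, 80.3% and 81.8% of liproxstatin neutrophils and 80.9% and 66.3% of control neutrophils had a Csf3r UMI, against at most 0.346% of CD8 T cells, which should lack it. In all, 45.1% and 33.1% of the Csf3r UMIs of the liproxstatin libraries and 21.3% and 42.8% of those of the control libraries were in neutrophils. Macrophages held more Csf3r UMIs than neutrophils in liproxstatin replicate 2 (1961 against 1464) and control replicate 1 (1210 against 476). They held fewer in liproxstatin replicate 1 (2073 against 2540) and control replicate 2 (1911 against 1927). Among monocytes Csf3r was 87.7 and 107 CPM with liproxstatin and 106 and 118 CPM in control in the cluster led by Ace and Adgre4.

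Across the 13 classes, each gene with at least 10 CPM in some class was set beside the 10844 genes at that level by Pearson's r of log2(mean CPM + 1), over 13 points that share the same 4 libraries. Csf3r was most like Fpr1, C5ar2, Lrg1 and Slc27a4 (r from 0.99 to 0.97). Fpr1 encodes the neutrophil receptor for formylated bacterial peptides. Csf1r was most like Clec4a2, Clec4a1, Ccl9 and Lyz2, which encodes lysozyme (r from 0.99 to 0.97). Csf2rb was most like Alox5ap, needed for leukotriene synthesis, Pirb, Prkcd and I830077J02Rik (r from 0.98 to 0.96). Csf2ra was most like Bst1, Cd300c2, Spi1 and Marcks (r from 0.97 to 0.96), and Spi1 encodes PU.1, a transcription factor of myeloid cells. Csf2 was most like the cytotoxic lymphocyte genes Cd160, Fasl and Klrc2, and Ifitm10 (r from 0.97 to 0.96). Csf1 had no close match, its nearest being Hspa4l, Eea1, Zfp523 and Ppp2r2d (r from 0.87 to 0.84).

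Since Spi1 was among the genes nearest to Csf2ra, the RefSeq promoter windows of the receptor genes Csf2ra and Csf3r are shown, again 250 bases upstream of the start on GRCm38.p6. Csf2ra lies on the minus strand of chromosome 19 (chr19:61223957-61228429), with the window at chr19:61228419-61228668. Csf3r lies on the plus strand of chromosome 4 (chr4:126024550-126044440), with the window at chr4:126024409-126024658. Both windows reach into the GENCODE gene models. The PU.1 core nearest the Csf2ra start and the PU.1 core of the Csf3r window lie within these models. Capitals mark matches on either strand to the 6 motifs spelled out for Csf1.
Csf2ra: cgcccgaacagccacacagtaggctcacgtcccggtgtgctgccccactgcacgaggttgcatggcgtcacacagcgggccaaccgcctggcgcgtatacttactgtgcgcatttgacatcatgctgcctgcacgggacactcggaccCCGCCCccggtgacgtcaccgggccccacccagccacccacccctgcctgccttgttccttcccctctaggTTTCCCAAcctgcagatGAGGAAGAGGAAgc
Csf3r: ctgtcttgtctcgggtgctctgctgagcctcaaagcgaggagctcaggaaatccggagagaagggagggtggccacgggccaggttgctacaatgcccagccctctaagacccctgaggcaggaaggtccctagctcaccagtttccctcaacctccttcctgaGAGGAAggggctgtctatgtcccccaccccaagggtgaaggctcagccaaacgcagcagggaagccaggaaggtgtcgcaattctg
The Csf2ra window held 2 adjoining PU.1 cores, 1 C/EBP match and 1 GC box, and the Csf3r window 1 PU.1 core. Of all 32851 windows, 23.3% held the PU.1 letters and 33.3% the C/EBP letters, so such matches are common and are no measure of binding. No overlap between motifs occurred in these windows.

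Liproxstatin and control were then compared within each class by edgeR's quasi-likelihood test on UMIs summed per library, with Benjamini-Hochberg adjustment over all genes tested in the class. A pair was called at an adjusted p under 0.05. Of the 91 pairs of a CSF gene and a class, 51 passed the filter on low counts and 40 did not. Csf3 in macrophages was the 1 pair called, or 1 of 51, against 0.509% of all pairs of gene and class tested. Csf3 passed that filter only through the liproxstatin libraries, so that a difference was built into its being tested. An unadjusted p under 0.05 was found for 7 pairs, against 8.26% of all pairs. No receptor gene passed the test in any class. In macrophages 1.95% of all 14303 genes were called, and 1.21% were called higher with liproxstatin.

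**Figure D3:**
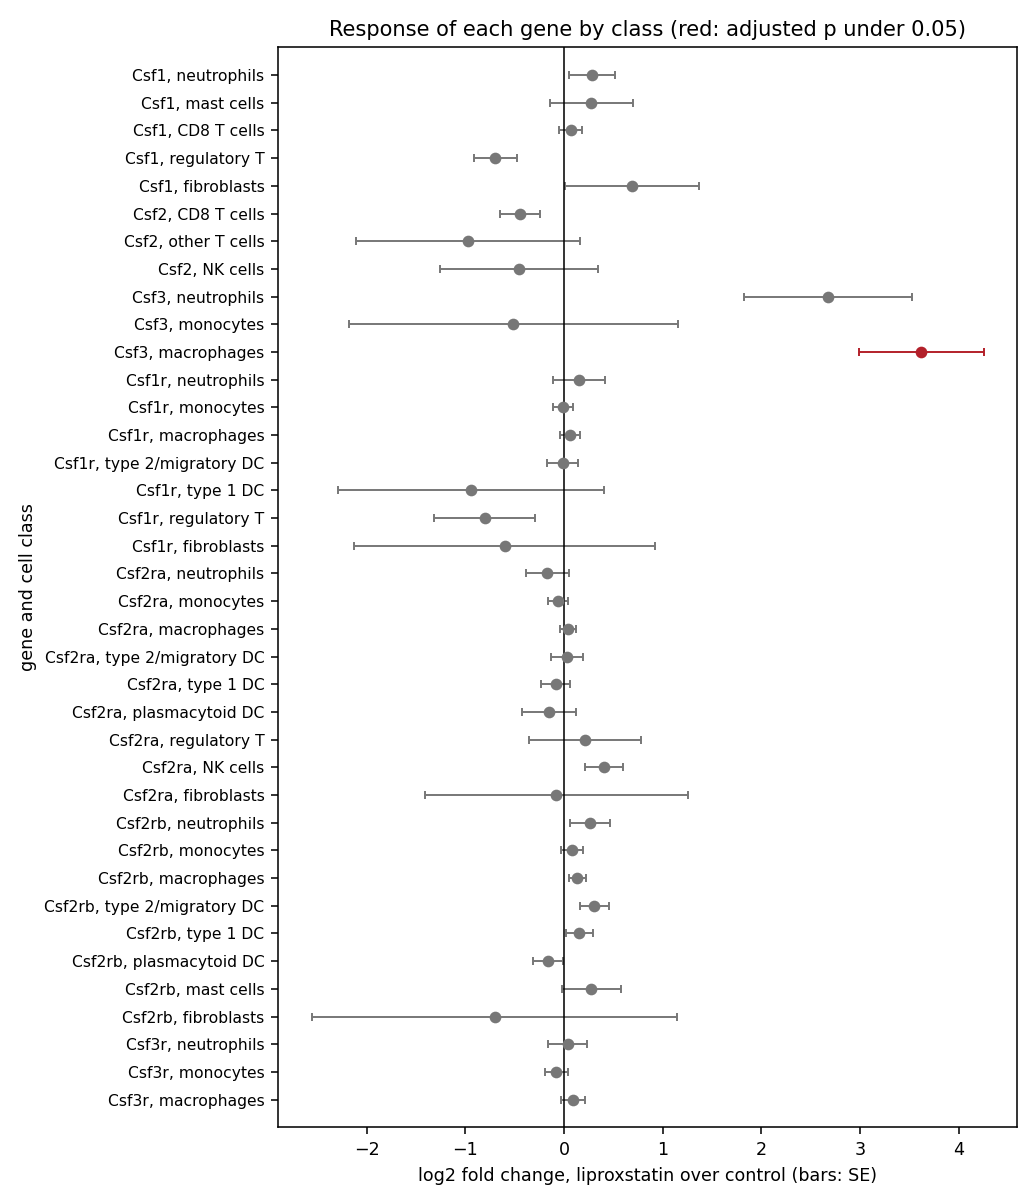
Log2 fold change of liproxstatin over control for pairs of gene and class, with bars of 1 standard error (SE, from 2 libraries per group). The 1 called pair, Csf3 in macrophages (3.62), is red and passed the filter on low counts only through the liproxstatin libraries. The receptor genes of neutrophils, monocytes and macrophages lie between -0.17 and 0.26.

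In macrophages the called log2 fold change of Csf3 was 3.62 ± 0.63 (SE, n = 2 libraries per group, edgeR quasi-likelihood adjusted p = 0.0175). The counts behind it were 23 and 23 UMIs in 2867 and 3302 liproxstatin macrophages and 1 and 2 UMIs in 1353 and 2752 control macrophages. Csf3 passed the filter on low counts only through the liproxstatin libraries, so that a difference was built into its being tested. The ratio of the summed levels was 12.8, with an exact 95% counting interval of 4.12 to 64.4. That interval treats UMIs as independent and does not cover the spread between cells or libraries. The UMIs were not spread evenly: 11 and 3 cells with a UMI in the liproxstatin libraries, against 1 and 2 in control. A single liproxstatin replicate 2 cell held 20 UMIs, and the top cell of liproxstatin replicate 1 held 9. Both had macrophage markers (1173 and 640 UMIs of the 10 markers) beside 15 and 19 UMIs of the 10 neutrophil markers, and 57014 and 28387 UMIs in all. Without the top cell of each library 14 and 3 UMIs were left with liproxstatin and 0 and 1 in control, and Csf3 no longer passed the filter.

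Most Csf3 UMIs of macrophages, 36 of 49, lay in a cluster led by Cd83 and Cxcl1, a neutrophil chemokine gene, but only 6 of the 17 macrophages with a Csf3 UMI did. That cluster held 15 and 21 of the Csf3 UMIs of the liproxstatin libraries, at 0.736 and 1.21 CPM, and 0 and 0 UMIs in control. It was 24.5% and 22.6% of liproxstatin macrophages and 14.3% and 4.58% of control macrophages, or 701 and 745 liproxstatin and 194 and 126 control cells. Outside it Csf3 was 0.117 and 0.0292 CPM with liproxstatin and 0.0235 and 0.0213 CPM in control, and did not pass the filter. At finer resolution its part led by Cxcl1, Pdpn and Il1a had 2.58 and 6.64 CPM with liproxstatin and 0 and 0 CPM in control, in 149 and 123 liproxstatin and 32 and 24 control cells. The edgeR call was lost without liproxstatin replicate 1 (adjusted p = 0.257) and without liproxstatin replicate 2 (adjusted p = 0.172), while the log2 fold change stayed between 3.57 and 3.66 when any 1 library was left out. Neutrophil markers in macrophages summed to between 203 and 261 CPM with liproxstatin and between 149 and 280 CPM in control, so these ranges overlapped.

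**Figure D4:**
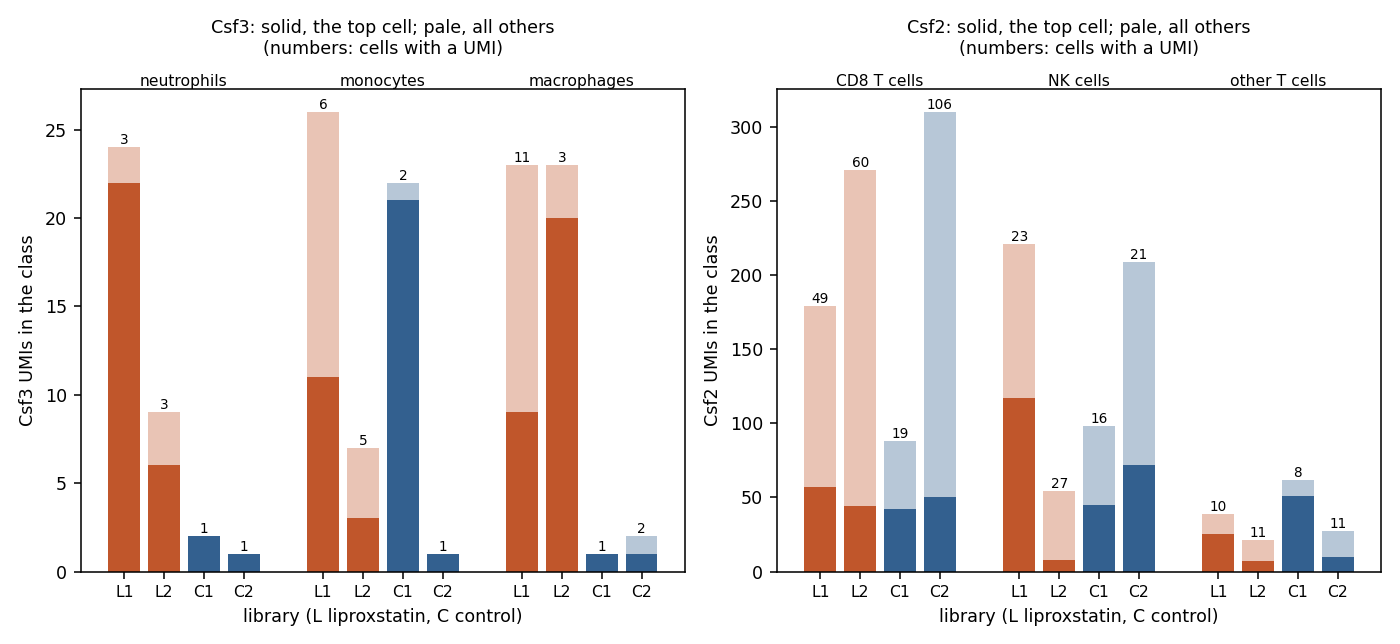
UMIs of Csf3 (left) and Csf2 (right) per library and class, L for liproxstatin and C for control. The solid part is the cell with the most UMIs, the pale part all other cells, and the number above a bar counts the cells with a UMI. Single cells make up 20 of 23 Csf3 UMIs in macrophages of liproxstatin replicate 2 and 21 of 22 in monocytes of control replicate 1.

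In neutrophils Csf3 had a log2 fold change of 2.68 ± 0.85 that missed the threshold (edgeR adjusted p = 0.337, unadjusted p = 0.00606). Here too Csf3 passed the filter only through the liproxstatin libraries. Without control replicate 1 the value was 3.99, without control replicate 2 it was 0.85, and without liproxstatin replicate 1 the gene failed the filter. In this class 0.223% of 5837 genes were called and 8.17% had an unadjusted p under 0.05. The summed levels had a ratio of 7.19, with an exact 95% counting interval of 2.26 to 36.6. That interval treats UMIs as independent and does not cover the spread between cells or libraries. Only 3 and 3 of 583 and 392 liproxstatin neutrophils had a UMI, and 1 and 1 of 98 and 442 control neutrophils. In liproxstatin replicate 1, 22 of 24 UMIs came from 1 cell. Without the top cell of each library the level was 0.979 and 2.76 CPM with liproxstatin and 0 and 0 CPM in control. In monocytes the log2 fold change was -0.52 ± 1.67 (edgeR adjusted p = 0.970), with 21 of the 22 UMIs of control replicate 1 in 1 cell. Without control replicate 1 it was 3.30, the opposite sign, and without control replicate 2 it was -1.73. An interferon-stimulated cluster of unparted phagocytes led by Rsad2 and Ifit3 held 1 and 0 Csf3 UMIs with liproxstatin and 9 and 0 in control, the 9 in 1 cell. For all mononuclear phagocytes, this cluster included, the log2 fold change was 0.64 ± 1.41 (edgeR adjusted p = 0.875), with 2.00% of 14666 genes called. Without control replicate 1 it was 3.77, and without control replicate 2 it was -0.57.

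Csf1 in neutrophils had a log2 fold change of 0.29 ± 0.23 (edgeR adjusted p = 0.846). Of the 142 Csf1 UMIs of control replicate 1, 40 came from 1 cell. Without the top cell of each library the levels were 338 and 439 CPM with liproxstatin and 296 and 250 CPM in control, and no longer overlapped. Without control replicate 1 the log2 fold change was 0.64, and without control replicate 2 it was -0.03. In neutrophils 2 of the 6 genes that passed the filter, Csf3 and Csf2rb, had groups that did not overlap, against 35.6% of all genes of that class.

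In regulatory T cells Csf1 was 71.7 and 84.8 CPM with liproxstatin and 109 and 142 CPM in control, both liproxstatin values below both control values. The log2 fold change was -0.70 ± 0.21 (edgeR adjusted p = 0.214, unadjusted p = 0.00263). In this class 0.331% of 7254 genes were called, 7.65% had an unadjusted p under 0.05 and 37.4% did not overlap between groups. Of the 92 Csf1 UMIs of control replicate 2, 42 came from 1 cell. Without the top cell of each library the levels were 66.5 and 70.4 CPM with liproxstatin and 91.7 and 78.1 CPM in control. Without control replicate 1 the log2 fold change was -0.86, without control replicate 2 it was -0.48, and with equal cell numbers -0.27 (edgeR adjusted p = 0.990). CD8 T cells held the largest part of the Csf1 UMIs counted in these CD45-selected libraries. Their log2 fold change of Csf1 was 0.07 ± 0.12 (edgeR adjusted p = 0.896). In fibroblasts, where no gene was called (0.0%) and 139 genes had an unadjusted p under 0.05, Csf1 was 149 and 65.3 CPM with liproxstatin and 39.2 and 93.5 CPM in control.

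Csf2 had a log2 fold change of -0.45 ± 0.20 in CD8 T cells (edgeR adjusted p = 0.457, unadjusted p = 0.0465), a class with 1.21% of 11651 genes called. Its log2 fold change was -0.46 ± 0.80 in NK cells (edgeR adjusted p = 0.955) and -0.97 ± 1.13 in other T cells (edgeR adjusted p = 0.929). In these classes 0.0935% and 0.181% of genes were called. Without control replicate 1 the CD8 value was -0.62, and without control replicate 2 it was -0.17. The value in other T cells changed sign without control replicate 1, to 0.27, and was -1.57 without liproxstatin replicate 1 and -1.90 without control replicate 2. Summed over all kept cells, Csf2 was 3.03 and 2.53 CPM with liproxstatin and 3.28 and 3.85 CPM in control, without overlap (log2 fold change -0.33 ± 0.15, edgeR adjusted p = 0.408). Over all kept cells 3 of 7 genes did not overlap between groups, as did 46.5% of all genes, and 0.0926% of genes were called.

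**Figure D5:**
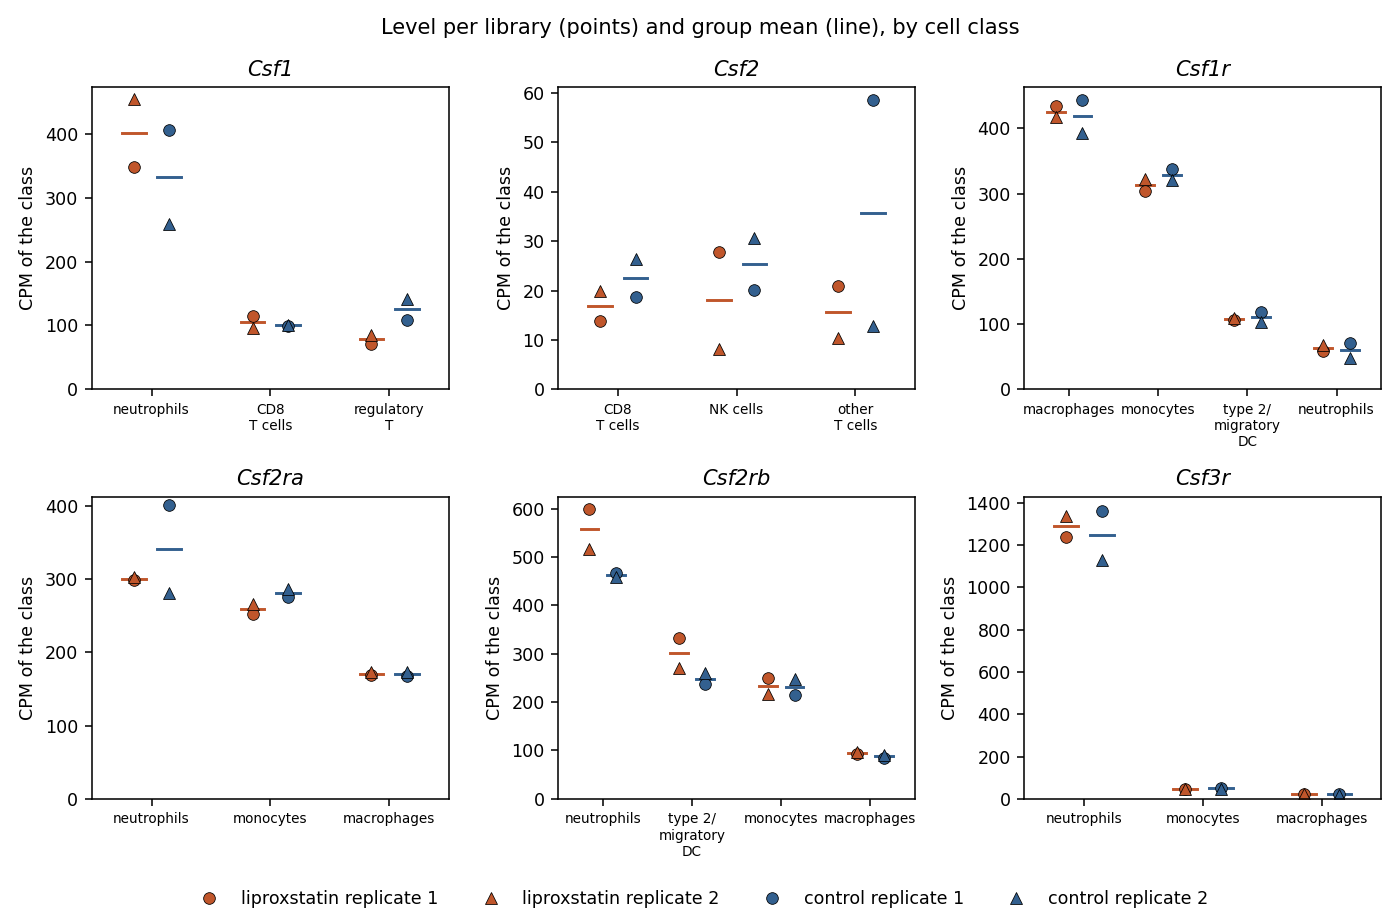
Level in CPM of 6 genes in the classes where they are highest. Points are libraries and lines are group means, with liproxstatin left of control in each class. Csf1 in regulatory T cells and Csf2rb in neutrophils are separated between the groups, but neither passed the test (edgeR adjusted p = 0.214 and 0.829). In these classes 37.4% and 35.6% of all genes did not overlap between groups. Csf2rb in macrophages and Csf2ra and Csf3r in monocytes, among others, did not overlap either. Csf1r, Csf2ra and Csf3r in macrophages lie close together.

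The receptors had small fold changes in their main cells, none past the test. Csf1r had a log2 fold change of 0.06 ± 0.10 in macrophages (edgeR adjusted p = 0.829) and -0.01 ± 0.10 in monocytes (edgeR adjusted p = 0.989), with 0.123% of monocyte genes called. Csf3r had 0.04 ± 0.20 in neutrophils (edgeR adjusted p = 0.988) and 0.09 ± 0.12 in macrophages (edgeR adjusted p = 0.790). Csf2ra had -0.17 ± 0.22 in neutrophils (edgeR adjusted p = 0.924) and 0.04 ± 0.08 in macrophages (edgeR adjusted p = 0.864).

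Csf2rb was higher in both liproxstatin libraries in 3 myeloid classes, without passing the test. Its log2 fold change was 0.26 ± 0.20 in neutrophils (edgeR adjusted p = 0.829), 0.31 ± 0.15 in type 2 and migratory dendritic cells (edgeR adjusted p = 0.662) and 0.14 ± 0.08 in macrophages (edgeR adjusted p = 0.488). Among all genes of type 2 and migratory dendritic cells 38.5% had groups that did not overlap. In the other myeloid classes tested the Csf2rb groups overlapped. Monocytes had a log2 fold change of 0.08 ± 0.11 (edgeR adjusted p = 0.892). Type 1 conventional dendritic cells had 0.16 ± 0.13 (edgeR adjusted p = 0.924) and mast cells 0.28 ± 0.30 (edgeR adjusted p = 0.910). Plasmacytoid dendritic cells had -0.16 ± 0.15 (edgeR adjusted p = 0.921). For all mononuclear phagocytes (monocytes, macrophages and the Rsad2-led cluster) Csf2rb was 118 and 114 CPM with liproxstatin and 101 and 106 CPM in control. The log2 fold change was 0.21 ± 0.08 (edgeR adjusted p = 0.199, unadjusted p = 0.0188, a level reached by 16.4% of genes). Monocytes, with more Csf2rb than macrophages, were 1106 of 4231 and 1259 of 4861 of these cells with liproxstatin. In control they were 408 of 1919 and 653 of 3539, and the part of this mix in the pooled value was not tested. In macrophages 3 of the 6 genes that passed the filter (Csf1, Csf3 and Csf2rb) did not overlap, against 46.6% of all genes.

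In lymphocytes the receptor differences lay at low levels. Csf1r in CD8 T cells had a log2 fold change of -0.77 ± 0.24 (edgeR adjusted p = 0.143, unadjusted p = 0.00349), at the low level described above. With the replicate number as a block it was called, as were 473 of all 11651 genes, but the numbers are not shown to pair the libraries. Both liproxstatin values lay below both control values. In this class the groups did not overlap for 40.9% of genes, and 10.6% of genes had an unadjusted p under 0.05. In NK cells Csf2rb was 1.89 and 4.23 CPM with liproxstatin and 0.824 and 1.46 CPM in control, and Csf3r 2.14 and 4.07 CPM with liproxstatin and 0.824 and 1.90 CPM in control. Their edgeR adjusted p-values were 0.625 and 0.694, and both unadjusted p-values were under 0.05, as for 7.17% of genes in this class. Of the Csf3r UMIs of NK cells, 1 cell held 13 of 27 in liproxstatin replicate 2 and 10 of 13 in control replicate 2. For Csf2rb, 1 cell held 10 of 28 in liproxstatin replicate 2. In NK cells 3 of the 6 genes that passed the filter did not overlap, against 36.8% of all genes.

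Whether neutrophils and mononuclear phagocytes responded differently was tested by the interaction of class and treatment in edgeR. None of the 6 genes tested passed (each adjusted p = 1), where 0.0587% of 13638 genes were called, and none of the 6 had an unadjusted p under 0.05, against 3.58% of genes. The difference of the log2 fold changes was 1.43 ± 1.16 for Csf3, 0.38 ± 0.31 for Csf1 and between -0.02 and 0.24 for the receptors.

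The 6 lists of genes around the CSF pathway were counted in the 13 classes. Together 10 of their 805 pairs of gene and class changed, 1.24%, beside 0.509% of all pairs. Of 12 related cytokines and receptors, such as Il34, Kitl and Il3ra, 42 pairs of gene and class were tested and 0 changed at the adjusted threshold. Of 6 genes of receptor shedding and turnover, such as Adam17, 72 pairs were tested and 0 changed. Of 27 receptor-proximal signalling genes, such as Jak2, Stat5a and Syk, 1 of 311 pairs rose and 0 fell. Of 14 STAT targets and feedback inhibitors 1 of 148 pairs rose and 1 fell. Of 16 myeloid transcription factors 5 of 146 pairs rose (3.42%) and 0 fell. Most of these 5 pairs were Cebpb, counted once in each of macrophages, mast cells, NK cells and other T cells. The same pairs are among the 10 of all 6 lists. Pairs of the same gene are not independent, so neither share measures a response of a list. Of 12 upstream inducers of CSF genes 2 of 86 pairs rose and 0 fell. The median log2 fold change of a list in a class lay between -0.28 and 0.50, beside medians of all tested genes between -0.01 and 0.01.

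The list genes that rose in macrophages included Pik3r1 and Cebpb. Pik3r1 encodes the regulatory subunit of phosphoinositide 3-kinase and had 51.3 and 44.3 CPM with liproxstatin and 33.4 and 29.7 CPM in control (log2 fold change 0.64 ± 0.10, edgeR adjusted p = 0.00953). Cebpb, a transcription factor of granulocytes and inflamed macrophages, had 1214 and 1259 CPM with liproxstatin and 871 and 758 CPM in control (0.64 ± 0.11, edgeR adjusted p = 0.0172). Both calls were lost without either liproxstatin library, and that of Cebpb also without the Cd83-led and Cxcl1-led cluster, where the edgeR adjusted p was 0.0533. Over all alternative settings the log2 fold change lay between 0.52 and 0.76 for Cebpb and between 0.52 and 0.74 for Pik3r1. Without that cluster 51 genes were called in macrophages, against 279 with it.

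Cebpb also rose in mast cells (log2 fold change 1.51 ± 0.19, edgeR adjusted p = 0.000916), NK cells (1.24 ± 0.14, edgeR adjusted p = 0.0151) and other T cells (1.09 ± 0.15, edgeR adjusted p = 0.00123). In mast cells it was 578 and 619 CPM with liproxstatin and 259 and 197 CPM in control. In NK cells it was 215 and 192 CPM with liproxstatin and 102 and 74.6 CPM in control. Neutrophils had 10853 and 13286 CPM of Cebpb with liproxstatin and 9410 and 7974 CPM in control, and free neutrophil RNA as a part of the lymphocyte values was not tested. The Cebpb call was lost without control replicate 2 in mast cells (edgeR adjusted p = 0.0693) and without liproxstatin replicate 1 in NK cells (edgeR adjusted p = 0.188). With gates per cell it was lost in NK cells (edgeR adjusted p = 0.121) and other T cells (edgeR adjusted p = 0.0522), and in other T cells also with equal cell numbers (edgeR adjusted p = 0.0748). Mast cells also had more Nfkb1, a subunit of NF-kB, at 159 and 128 CPM with liproxstatin and 58.4 and 56.4 CPM in control (1.42 ± 0.27, edgeR adjusted p = 0.0212), a class with 0.560% of genes called. The Nfkb1 call was lost without control replicate 1 (edgeR adjusted p = 0.0650), without control replicate 2 (edgeR adjusted p = 0.438) and with DESeq2 (adjusted p = 0.106).

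Socs3, which encodes an inhibitor of the G-CSF receptor and other cytokine receptors, rose in type 2 and migratory dendritic cells to 336 and 308 CPM with liproxstatin, against 175 and 157 CPM in control (0.98 ± 0.14, edgeR adjusted p = 0.0115). In this class 0.166% of genes were called. With cell types set by gates per cell the Socs3 value was 0.41 (edgeR adjusted p = 0.706). Spry2, a feedback inhibitor of kinase signalling, fell in CD8 T cells to 66.6 and 61.7 CPM with liproxstatin, against 114 and 92.7 CPM in control (-0.68 ± 0.12, edgeR adjusted p = 0.00283), a call lost without control replicate 1 (edgeR adjusted p = 0.0512) or liproxstatin replicate 1 (edgeR adjusted p = 0.0570). Il1b, which induces Csf3 in many cells, rose in NK cells to 53.6 and 49.9 CPM with liproxstatin, against 24.5 and 29.5 CPM in control (0.96 ± 0.14, edgeR adjusted p = 0.0225), a call lost without liproxstatin replicate 1 (edgeR adjusted p = 0.510), with equal cell numbers (edgeR adjusted p = 0.656) and with gates per cell (edgeR adjusted p = 0.0762). Its level in neutrophils was 21030 and 23321 CPM with liproxstatin and 29368 and 16126 CPM in control, and the neutrophil markers in NK cells summed to between 72.2 and 94.3 CPM with liproxstatin and between 18.3 and 169 CPM in control.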

How the data were processed

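UMIs per gene and barcode were deposited by the authors as raw counts, 1 matrix per library, not normalized. Cell Ranger 6.1.1 stands in the matrix headers, but version 4, with mm10, in the submitters' processing notes. Which of them made these counts is not settled here. How reads matching several genes were counted is not given in the sources used here. GENCODE M21 (GRCm38) gave positions for 32158 of the 32285 gene identifiers.

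Cells with at least 200 genes and under 15% mitochondrial UMIs were kept. The cells with the highest Scrublet scores (scanpy 1.11.5, python 3.11.15), at 0.8% per 1000 barcodes (3.30% to 7.44% of a library), were called doublets and left out, leaving 25730 cells. Leiden clustering (igraph 0.11.9, resolution 1, 40 principal components, 20 neighbours, no batch integration) gave 27 clusters, of which 23 were named from 20 marker lists and 4 were not. Finer clusters used resolution 2, which gave 39. Naming thresholds were set after clusters had been seen.

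The UMIs of a class (20 cells or more in each library) were added up by library and tested with edgeR 4.0.16 (R 4.3.3; filterByExpr, TMM, robust quasi-likelihood, treatment only), checked on simulated counts. SE is the log2 fold change over the square root of F. The interaction used the library as a block. DESeq2 1.42.0, other scalings and filters, left-out libraries, doublets kept, equal cell numbers, gates per cell and finer clusters were alternatives.

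The 7 genes and the gene lists were chosen with earlier results of these data known. Named genes were the 7 members in every class, the called genes of each list (at most 4 per list and class) and the 4 genes most correlated with a member over classes. 1 called list gene is not reported here. Replicate numbers are those of the labels, from which the file names deviate.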

Additional observations from a re-analysis of the deposited data

Results flagged for a closer look

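The results here are those in which both liproxstatin libraries lay above both control libraries in one class and below them in another class. The differences between the classes were not tested, and between 27.1% and 48.7% of all genes had groups that did not overlap in a given class. Csf1 had a log2 fold change of 0.10 in macrophages and -0.70 in regulatory T cells, 0.80 apart. Csf2ra had 0.41 in NK cells, against -0.06 in monocytes (0.47 apart) and -0.15 in plasmacytoid dendritic cells (0.56 apart). Csf3r had 1.12 in NK cells and -0.08 in monocytes, 1.20 apart. Of the Csf3r UMIs of NK cells, 13 of 27 in liproxstatin replicate 2 and 10 of 13 in control replicate 2 came from 1 cell. None of these fold changes passed edgeR's test at the adjusted threshold.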

How the results depend on the processing

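Of the CSF genes, the 1 called in macrophages, Csf3, became 0 with DESeq2, which gave Csf3 no adjusted p (log2 fold change 3.72 ± 1.21, unadjusted p = 0.00218). It also became 0 with equal cell numbers, without the cluster led by Cd83, Cxcl1 and Il1a, and without the top Csf3 cell of each library, the last 2 chosen after seeing the data. In these 3 settings Csf3 failed the filter on low counts. Its log2 fold change was 3.62 to 7.53 in the other settings that left out no library. With cell gates 1 CSF gene was called in mononuclear phagocytes (Csf3, 4.68), where 569 of all 13987 genes were called. Levels with cell gates were 451 CPM (Csf1r, macrophages), 446 CPM (Csf2rb, neutrophils) and 1064 CPM (Csf3r, neutrophils).

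With 1 library left out, the number of CSF genes called varied in neutrophils, fibroblasts, monocytes, macrophages, mononuclear phagocytes and type 1 conventional dendritic cells. It also varied in CD8, regulatory and other T cells, B cells and all kept cells. The number of all genes called moved in these fits too, so such a call is no result about the CSF genes. A fit with 1 library in a group assumes that it varies like the other group. The ranges of log2 fold changes that then changed sign were as follows. For Csf1 they were -0.0326 to 0.64 in neutrophils and -0.0433 to 0.17 in CD8 T cells. For Csf2 they were -1.61 to 0.15 in NK cells and -1.90 to 0.27 in other T cells. For Csf3 they were -1.73 to 3.30 in monocytes and -0.57 to 3.77 in mononuclear phagocytes. For Csf1r they were -0.0507 to 0.17 in macrophages, -0.0825 to 0.0647 in monocytes and -0.20 to 0.37 in neutrophils. For Csf2ra they were -0.0011 to 0.0736 in macrophages and -0.42 to 0.12 in neutrophils, and for Csf2rb -0.0308 to 0.18 in monocytes. For Csf3r they were -0.11 to 0.29 in macrophages, -0.19 to 0.0311 in monocytes and -0.0848 to 0.21 in neutrophils. Without leaving out a library, signs changed for Csf1r in monocytes at resolution 2 (0.0031) and Csf3r in monocytes (0.0083) and Csf2 in other T cells (1.27) with cell gates. They also changed for Csf3 in mononuclear phagocytes with equal cells (-0.40) and without the Cd83-led cluster (-0.0688). The causes were not tested. With the replicate number as a block 1 CSF gene was called in CD8 T cells (Csf1r, -0.80, edgeR adjusted p = 0.0344), where 473 of all 11651 genes were called. The paired deviations correlated between -0.25 and 0.14 over classes, which does not show that the numbers pair the libraries. Of all genes in macrophages, 279 were called, but 988 without a filter, 426 by DESeq2, 536 with the block 0 without liproxstatin replicate 1 and 10 without liproxstatin replicate 2. In neutrophils 13 became 57 without a filter, 6 by DESeq2, 0 with the block and 278 without control replicate 1, and in monocytes 14 became 300, 40 and 112 with the first 3 of these. The interaction was not run with cell gates. Counts of 0 to 26 Csf3 UMIs per library and class limit its precision.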
